A study of Mus musculus with 32 samples.

Results

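The 10 genes described here are autophagy receptors and core genes: Sqstm1, Nbr1, Optn and Tax1bp1, which select cargo, and Map1lc3b, Gabarapl1, Ulk1, Becn1, Wipi1 and Tfeb, which build or regulate the autophagosome. They were chosen by gene name, and each name matched 1 of the 56748 genes of the deposited count table. All 10 were among the 16984 genes with enough reads to be tested. RNA with poly(A) tails was sequenced from primary white adipocytes, the lipid-storing cells of subcutaneous fat, from mice labelled wild type. The cells had received siRNA against Atf3, siRNA against Nfe2l1, both of these siRNAs, or a scrambled siRNA. Cells were then given control treatment, or cholesterol at 400 µM for 6 h, complexed to methyl-β-cyclodextrin, a sugar ring that carries sterols to membranes. This makes 8 groups of 4 libraries, which the labels call biological replicates. Whether the carrier was also in the control treatment is not stated in the labels, so an effect of cholesterol and one of the carrier cannot be told apart. Nfe2l1 encodes a transcription factor of the endoplasmic reticulum that raises proteasome genes, while ATF3 is a transcription factor that cells make under stress.

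In macroautophagy a double membrane closes around cytoplasm or marked cargo and the vesicle fuses with a lysosome, where the content is degraded. The kinase ULK1 and the lipid kinase complex that contains Beclin 1 (Becn1) start the membrane, and WIPI proteins bind the lipid that this complex makes. Proteins of the ATG8 family (LC3 and GABARAP proteins) are then attached to the membrane, where the receptors p62 (Sqstm1), NBR1, optineurin (Optn) and TAX1BP1 bind them and ubiquitin on the cargo. TFEB is a transcription factor that raises lysosomal and autophagy genes.

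On GRCm39, the receptor genes lie on chromosome 11 (Sqstm1, ENSMUSG00000015837, 50090193 to 50101654, minus strand, and Nbr1, ENSMUSG00000017119, 101442975 to 101472777, plus strand), chromosome 2 (Optn, ENSMUSG00000026672, 5025453 to 5068862, minus strand) and chromosome 6 (Tax1bp1, ENSMUSG00000004535, 52690714 to 52743765, plus strand). The ATG8 genes are Map1lc3b (ENSMUSG00000031812, chromosome 8, 122317100 to 122325499, plus strand) and Gabarapl1 (ENSMUSG00000030161, chromosome 6, 129510123 to 129519309, plus strand). Ulk1 (ENSMUSG00000029512) lies on chromosome 5 at 110932354 to 110957963 on the minus strand. Becn1 (ENSMUSG00000035086, 101176778 to 101193112) and Wipi1 (ENSMUSG00000041895, 109464157 to 109502793) lie on the minus strand of chromosome 11. Tfeb (ENSMUSG00000023990) lies on chromosome 17 at 48047955 to 48103344 on the plus strand. Whether reads were counted by strand is not given in the sources used here. Map1lc3b shares 58 bases with Zcchc14 on the other strand, whose mean count was 48.8% of that of Map1lc3b, and reads of that stretch cannot be told apart. For the other members, overlapping genes held less than 1% of the member's count.

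The promoters of Sqstm1, Optn, Gabarapl1 and Wipi1 are shown because these 4 members changed most between the groups. The promoter of Tax1bp1 is shown as the only one of the 250-base stretches with a match to a searched motif. Each line gives the 250 bases before the RefSeq start on the gene's own strand, 5′ to 3′, from build GRCm38.p6, and capitals mark a motif match.
Sqstm1, chr11:50210821-50211070, minus strand: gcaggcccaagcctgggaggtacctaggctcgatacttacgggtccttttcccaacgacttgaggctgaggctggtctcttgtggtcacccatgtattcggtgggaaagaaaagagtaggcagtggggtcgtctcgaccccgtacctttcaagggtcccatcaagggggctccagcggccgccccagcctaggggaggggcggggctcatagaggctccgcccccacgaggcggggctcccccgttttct
Optn, chr2:5064118-5064367, minus strand: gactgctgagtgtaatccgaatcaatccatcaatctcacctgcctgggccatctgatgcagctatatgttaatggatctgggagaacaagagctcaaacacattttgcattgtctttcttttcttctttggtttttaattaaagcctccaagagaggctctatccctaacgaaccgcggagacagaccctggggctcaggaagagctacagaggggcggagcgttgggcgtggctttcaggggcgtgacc
Gabarapl1, chr6:129532942-129533191, plus strand: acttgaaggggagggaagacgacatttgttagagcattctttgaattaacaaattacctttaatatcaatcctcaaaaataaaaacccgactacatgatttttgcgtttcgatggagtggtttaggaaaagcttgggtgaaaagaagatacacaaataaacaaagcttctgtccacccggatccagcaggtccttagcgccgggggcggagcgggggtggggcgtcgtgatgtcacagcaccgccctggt
Wipi1, chr11:109611390-109611639, minus strand: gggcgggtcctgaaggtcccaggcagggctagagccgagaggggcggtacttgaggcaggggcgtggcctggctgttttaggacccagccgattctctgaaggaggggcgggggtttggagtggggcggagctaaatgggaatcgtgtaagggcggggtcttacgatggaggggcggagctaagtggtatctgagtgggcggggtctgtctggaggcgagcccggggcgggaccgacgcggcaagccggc
Tax1bp1, chr6:52713915-52714164, plus strand: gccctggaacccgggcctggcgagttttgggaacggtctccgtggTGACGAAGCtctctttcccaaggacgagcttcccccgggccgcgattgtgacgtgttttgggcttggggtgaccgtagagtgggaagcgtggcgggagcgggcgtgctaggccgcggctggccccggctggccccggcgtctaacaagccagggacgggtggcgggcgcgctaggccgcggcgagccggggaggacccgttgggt
RefSeq gave 13 promoters for 9 of the 10 members. The motifs named here were searched on both strands of 300 bases, from 250 before to 50 after the start. TGACNNNGC, the core of the antioxidant response element, was found in 2 of the 13, at -205 to -197 in Tax1bp1 (TGACGAAGC, in capitals above) and at 5 to 13 after the start in Map1lc3b. The other motifs were in none of the 13 promoters. These were CACGTG, the E-box at the core of the CLEAR element that TFEB binds, TGATGNAAT, the C/EBP-ATF response element, TGACGTCA, the cAMP response element, and TTCNNGAA, the core of the heat shock element. Over all 32851 promoters, 12.4% held TGACNNNGC, 7.15% CACGTG, 0.965% TGATGNAAT, 1.79% TGACGTCA and 8.52% TTCNNGAA. CACGTG, TGACGTCA and TTCNNGAA read alike on both strands, and no searched motif overlapped another in these 13 promoters.

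The 32 libraries held between 23457384 and 33828418 counts, and the second deepest held 28391112. The silenced genes followed their labels. Nfe2l1 averaged 73.8 ± 8.66 CPM (counts scaled to library size) with siNfe2l1 and 486.8 ± 6.02 CPM with scramble in control treatment (SD, n = 4 each). Atf3 averaged 40.9 CPM with siAtf3 and 397.8 CPM with scramble in cholesterol. The silencing was not equally strong throughout. With siAtf3, Atf3 stood at 10.3% of scramble in cholesterol and 37.8% in control treatment. With both siRNAs it stood at 12.8% in cholesterol and 57.3% in control treatment. In control treatment Nfe2l1 stood at 15.2% of scramble with siNfe2l1 and 23.4% with both siRNAs. A principal component analysis of the 1000 genes that varied most put 80.2% of their variance on a first axis, which separated cholesterol from control libraries. Libraries of siNfe2l1 cells in cholesterol ranged from 24.04 to 40.48 on it, those of siAtf3 cells from 29.45 to 35.24 and those with both siRNAs from 28.56 to 33.71, against 37.1 to 43.59 for scramble cells in cholesterol. Library 1 was the highest of its group on this axis in all 4 cholesterol groups, and also in Gabarapl1 level. The siNfe2l1 cholesterol group was the most spread, and several results that rest on it are also given without its libraries 3 and 4, the lowest on this axis. All 10 adipocyte markers were detected, at a summed 13690 to 15440 CPM in cholesterol and 11000 to 11690 CPM in control treatment of scramble cells. Markers of other cell types were detected as well, and the summed level of 8 fibroblast and precursor markers was 6358 to 6967 CPM in cholesterol and 23060 to 24080 CPM in control treatment of scramble cells. Library sizes were scaled so that most genes do not change (TMM). With library totals alone, the median of all genes moved to a log2 fold change of -0.12 for cholesterol in scramble cells, 0.06 for siNfe2l1 in cholesterol, 0.17 for siAtf3 in cholesterol and 0.14 for both siRNAs in cholesterol, and to 0.15 for siAtf3 and 0.11 for both siRNAs in control treatment.

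Corrected for gene length, Sqstm1 mRNA was the most abundant of the 10 in scramble cells, at 1141 RPKM (reads scaled to gene length and library size) in cholesterol and 231.5 RPKM in control treatment. Gabarapl1 came next, with 155.2 RPKM in cholesterol and 72.7 RPKM in control treatment. This order depends on the gene lengths of the deposited table, such as 2013 bases for Gabarapl1 and 7517 for Map1lc3b. Without length correction, Map1lc3b (214.8 CPM), Tax1bp1 (213.7 CPM) and Nbr1 (168.0 CPM) were above Gabarapl1 (146.4 CPM) in control treatment. In cholesterol Gabarapl1 (312.5 CPM) was above Tax1bp1 (272.2 CPM). Tfeb was lowest, with 4.50 RPKM in cholesterol and 3.06 RPKM in control treatment. Wipi1 ranked 8 of 10 in cholesterol at 18.8 RPKM, and 3 of 10 in control treatment at 32.6 RPKM. Optn ranked 7 of 10 in cholesterol at 19.5 RPKM, and 9 of 10 in control treatment at 6.49 RPKM.

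The first comparison asked how cholesterol changes these mRNAs in adipocytes that hold both transcription factors. In scramble cells all 4 receptors rose, Sqstm1 4.93-fold and Optn 3.01-fold, while Nbr1 and Tax1bp1 rose by log2 fold changes of 0.54 and 0.35. Gabarapl1 rose 2.13-fold, Ulk1, Tfeb and Becn1 rose less, and Wipi1 fell to 0.576 of its control level. A gene was called changed at an adjusted p within a false discovery rate of 0.05, from edgeR's quasi-likelihood test with Benjamini-Hochberg adjustment over all genes tested. By this rule 8 of 10 members were higher and 1 was lower, against 65.2% of all genes called (32.9% higher and 32.3% lower). The cholesterol and control libraries did not overlap for 8 members, against 57.4% of all genes. With library totals 7 members were called higher and 1 lower, and the share of higher genes among all calls was 38.9% in place of 50.4%. In bulk RNA, fewer cells of a type and less RNA per cell cannot be told apart.

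Sqstm1 encodes p62, which gathers ubiquitin-marked proteins into bodies that are enclosed by autophagosomes. It had 4534, 3497, 3915 and 3376 CPM in the cholesterol libraries, against 748.4, 725.2, 806.0 and 828.7 CPM in the control libraries of scramble cells. The lowest cholesterol library was thus far above the highest control library (log2 fold change 2.30 ± 0.10 SE, adjusted p = 1.53e-17). Optn encodes optineurin, a receptor for damaged mitochondria and bacteria. It had 77.5, 70.5, 77.6 and 67.6 CPM with cholesterol, against 25.7, 23.1, 23.8 and 24.9 CPM with control treatment. Here too the groups stood apart (1.59 ± 0.09, adjusted p = 6.1e-17). Nbr1, a receptor that also serves peroxisomes, had 228.3, 244.2, 265.2 and 236.6 CPM with cholesterol and 166.7, 161.4, 172.3 and 171.7 CPM with control treatment. The groups did not overlap, although the change was smaller than in Sqstm1 or Optn (0.54 ± 0.05, adjusted p = 5.78e-12). Tax1bp1, a ubiquitin-binding receptor that also clears protein aggregates, had 278.8, 270.7, 268.6 and 270.6 CPM with cholesterol and 212.8, 208.3, 213.0 and 220.9 CPM with control treatment. Its groups did not overlap (0.35 ± 0.04, adjusted p = 3.31e-10), and with library totals its log2 fold change was 0.23.

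The ATG8 genes differed from each other. Gabarapl1 had 367.9, 295.1, 326.0 and 261.1 CPM with cholesterol and 140.5, 132.6, 152.5 and 160.0 CPM with control treatment of scramble cells. All cholesterol libraries were above all control libraries (1.09 ± 0.12, adjusted p = 1.2e-08). Map1lc3b, which encodes LC3B, the usual marker protein of autophagosomes, had 251.4, 211.9, 222.6 and 217.7 CPM with cholesterol and 214.9, 211.7, 218.3 and 214.0 CPM with control treatment. These groups overlapped, and the difference did not pass the test (0.07, adjusted p = 0.19). With library totals its log2 fold change was -0.051.

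Among the genes that start the membrane, Ulk1 had 163.8, 195.7, 209.0 and 167.3 CPM with cholesterol and 135.8, 147.1, 139.3 and 130.4 CPM with control treatment (0.41 ± 0.09, adjusted p = 0.000104). The 2 groups did not overlap. Becn1 averaged 69.0 CPM with cholesterol and 64.1 CPM with control treatment, and this small difference was called (0.11 ± 0.04, adjusted p = 0.0268). The call of Becn1 was lost without scramble control library 1, 2 or 4 or scramble cholesterol library 1 or 3 (adjusted p between 0.0624 and 0.168), and its log2 fold change was -0.017 with library totals. Wipi1, whose protein binds the lipid of the growing membrane, had 79.6, 79.2, 88.9 and 83.7 CPM with cholesterol and 145.3, 143.8, 143.5 and 142.4 CPM with control treatment. It was the only member that fell (-0.80 ± 0.04, adjusted p = 4.65e-18), and its groups were far apart. Tfeb had 27.4, 27.2, 23.2 and 24.3 CPM with cholesterol and 16.1, 18.1, 18.3 and 16.9 CPM with control treatment, without overlap (0.55 ± 0.07, adjusted p = 1.12e-08). Markers of other cell types moved in the same comparison: of the macrophage markers 9 of 10 fell and none rose, of the fibroblast markers 7 of 8 fell and none rose, and of the adipocyte markers 9 of 10 rose and 1 fell. Their part in these results was not tested.

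**Figure D1:**
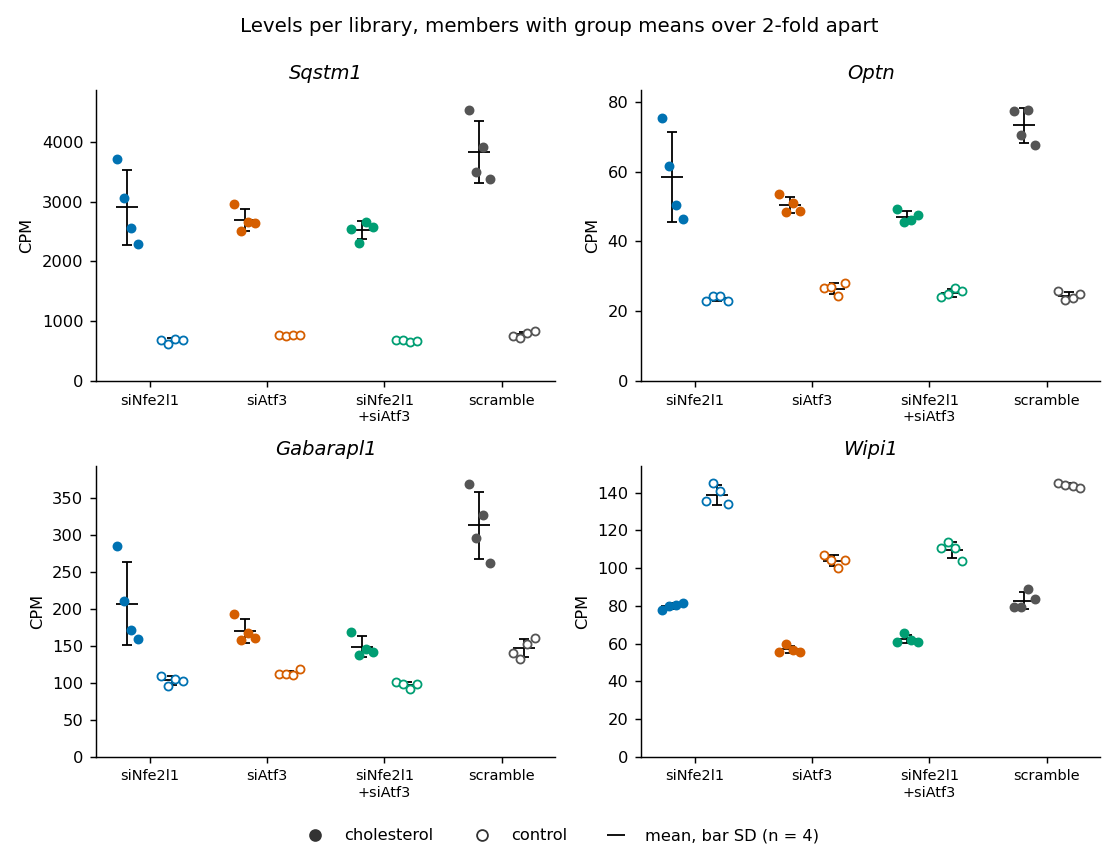
Levels of Sqstm1, Optn, Gabarapl1 and Wipi1 in CPM on the vertical axis, by siRNA on the horizontal axis, with cholesterol (filled) left of control treatment (open). Points are libraries, and bars give mean ± SD of 4 libraries. Cholesterol libraries lie above control libraries for Sqstm1, Optn and Gabarapl1 and below them for Wipi1 within each siRNA treatment.

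**Figure D2:**
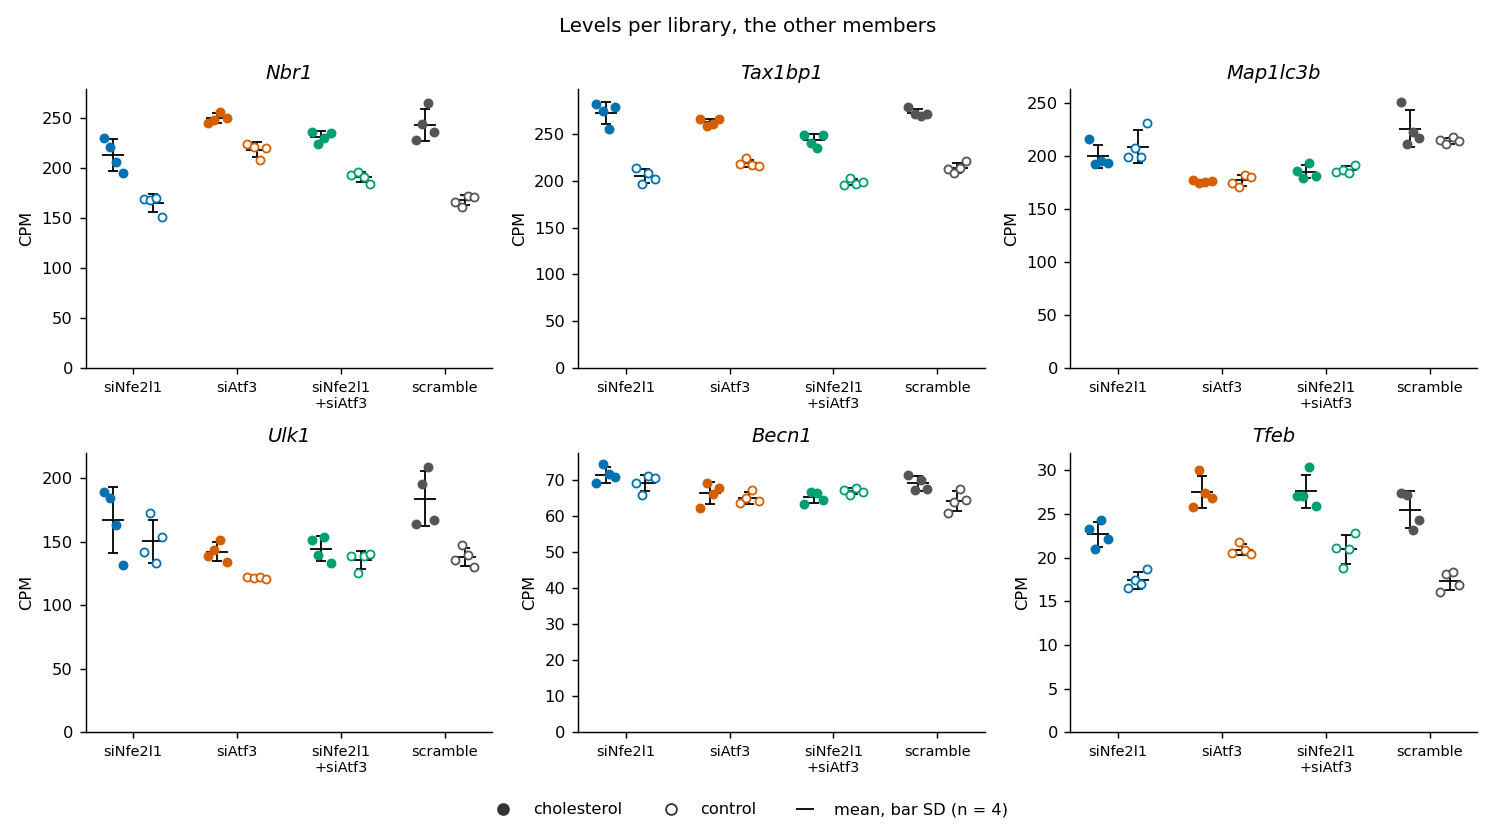
Levels of Nbr1, Tax1bp1, Map1lc3b, Ulk1, Becn1 and Tfeb in CPM, drawn in the same way, with mean ± SD of 4 libraries. The group means of Becn1 span no more than 1.11-fold over the 8 groups, and those of Nbr1 span 1.52-fold.

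Cholesterol was then compared with control treatment within each other siRNA. Sqstm1 rose 4.32-fold with siNfe2l1 (2.11 ± 0.10), 3.52-fold with siAtf3 (1.81 ± 0.10) and 3.75-fold with both siRNAs (1.91 ± 0.10). With siAtf3 it had 2955, 2507, 2649 and 2642 CPM in cholesterol and 765.9, 748.1, 771.8 and 772.5 CPM in control treatment. The 2 siAtf3 groups stood well apart. Optn rose 2.47-fold with siNfe2l1, 1.90-fold with siAtf3 and 1.86-fold with both. Gabarapl1 rose by 1.00 with siNfe2l1, 0.59 with siAtf3 and 0.61 with both on the log2 scale (adjusted p = 7.55e-08, 0.000183 and 0.000126 by edgeR). Wipi1 fell under every siRNA, by log2 fold changes of 0.80 with siNfe2l1, 0.87 with siAtf3 and 0.81 with both.

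Nbr1 rose by 0.37 with siNfe2l1, 0.19 with siAtf3 and 0.28 with both siRNAs on the log2 scale, Tax1bp1 by 0.41, 0.26 and 0.29, and Tfeb by 0.38, 0.40 and 0.39. With library totals the value of Nbr1 with siAtf3 was 0.12. Ulk1 passed the test with siAtf3 (0.22, adjusted p = 0.0272), with means of 142.0 CPM in cholesterol and 121.6 CPM in control treatment, but not with siNfe2l1 (0.15, adjusted p = 0.129) or both siRNAs (0.09, adjusted p = 0.365). The siAtf3 call of Ulk1 was lost with library totals (adjusted p = 0.114), with no filter on low counts (0.0655) and without the 8 libraries numbered 1 (0.0746). With siNfe2l1, Ulk1 was called without control library 2 (0.20, adjusted p = 0.0484) or without cholesterol library 4 (0.23, adjusted p = 0.00834). Map1lc3b averaged 176.2 CPM in cholesterol and 177.4 CPM in control treatment with siAtf3, and 185.2 and 187.0 CPM with both siRNAs. With siNfe2l1 it averaged 199.8 CPM in cholesterol and 209.2 CPM in control treatment (-0.07, adjusted p = 0.245), and it was called lower without siNfe2l1 cholesterol library 1 (-0.13, adjusted p = 0.0223). In all, 6 members were called higher and 1 lower with siNfe2l1, 7 and 1 with siAtf3, and 6 and 1 with both siRNAs. Without siNfe2l1 cholesterol libraries 3 and 4, 7 members were higher and 1 lower with siNfe2l1. The log2 fold changes were then 2.33 for Sqstm1, 1.54 for Optn, 1.26 for Gabarapl1, 0.45 for Nbr1, 0.44 for Tax1bp1, 0.35 for Tfeb and -0.82 for Wipi1, and Ulk1 was called (0.31, adjusted p = 0.00147). Becn1 averaged 71.5 CPM in cholesterol and 69.1 CPM in control treatment with siNfe2l1, 66.4 and 65.0 CPM with siAtf3, and 65.2 and 66.9 CPM with both siRNAs, and none of these differences was called. The fibroblast markers fell in 8 of 8 cases with each of these siRNAs, and the macrophage markers in 9 of 10 with siNfe2l1 and 10 of 10 with siAtf3 or both. The part of these markers was not tested. The background was 60.1% of all genes called with siNfe2l1 (31.1% higher and 29% lower), 58.1% with siAtf3 (29.4% and 28.6%) and 58.7% with both (29.8% and 28.9%). Libraries did not overlap for 7 members with siNfe2l1, against 50.1% of all genes, for 8 with siAtf3, against 54.8%, and for 7 with both, against 56.4%.

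**Figure D3:**
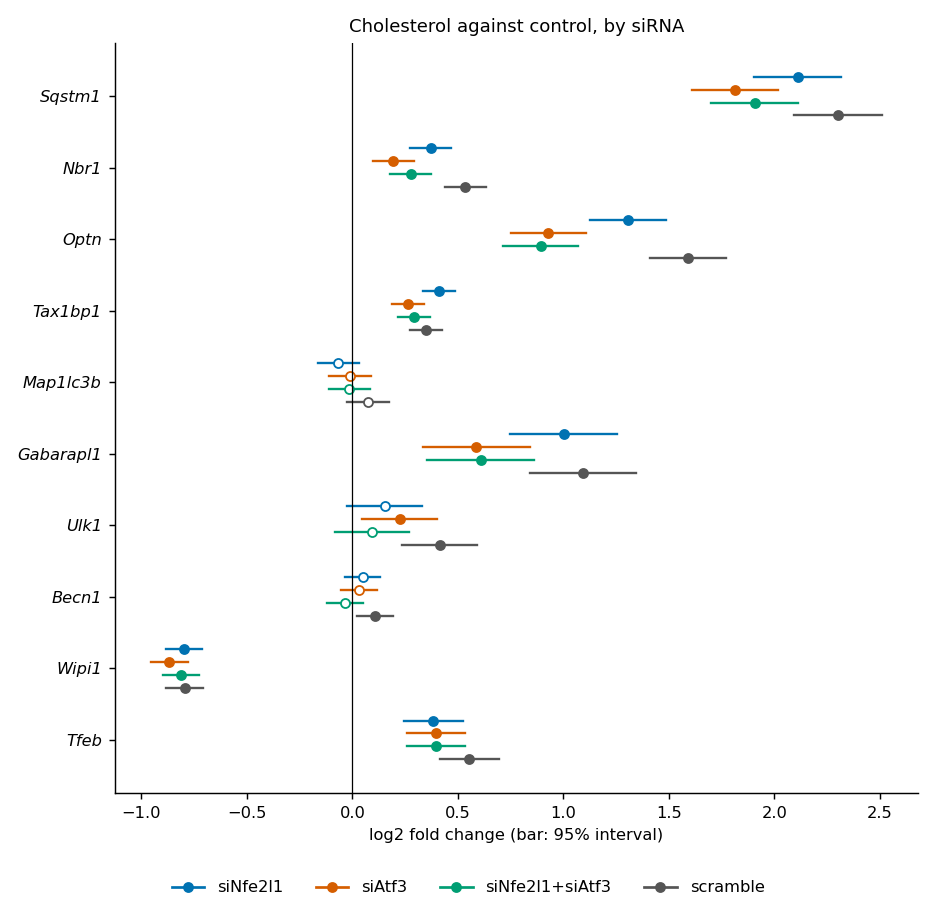
Log2 fold change of cholesterol against control treatment for each member under the 4 siRNA treatments, with 95% intervals, where filled points passed the test. Sqstm1 and Optn have the highest values and Wipi1 the lowest under each siRNA.

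The comparisons of siAtf3 with scramble asked how these mRNAs differ in cells given siRNA against Atf3. An effect of less Atf3 and other effects of the siRNA cannot be told apart here. The same holds for the other siRNA treatments. With siAtf3 in cholesterol, both ATG8 genes, the receptors Sqstm1 and Optn, Ulk1 and Wipi1 were lower than with scramble, and no member was higher. Gabarapl1 was lowest relative to scramble, at 0.543 of the scramble level, and Sqstm1 stood at 0.702 of it. In control treatment the picture was mixed: Nbr1 and Tfeb were higher with siAtf3, and Map1lc3b, Gabarapl1 and Wipi1 were lower. Thus 6 members were lower in cholesterol, against 50.4% of all genes called (23% higher and 27.4% lower), and 2 were higher and 3 lower in control treatment, against 36.3% of all genes called (18.1% higher and 18.2% lower). The libraries did not overlap for 7 members in cholesterol, against 40.9% of all genes, and for 6 in control treatment, against 41.3%. All these comparisons with scramble share the same scramble libraries.

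In cholesterol, Gabarapl1 had 192.8, 158.2, 167.3 and 160.5 CPM with siAtf3, against 367.9, 295.1, 326.0 and 261.1 CPM with scramble. All siAtf3 libraries were below all scramble libraries (-0.88 ± 0.12, adjusted p = 1.01e-06). Optn had 53.6, 48.5, 51.1 and 48.6 CPM with siAtf3, again below every scramble library (-0.54 ± 0.08, adjusted p = 2.02e-06). The siAtf3 libraries of Sqstm1, at 2507 to 2955 CPM, were below the scramble libraries, at 3376 to 4534 CPM (-0.51 ± 0.10, adjusted p = 6.92e-05). Map1lc3b had 177.4, 175.1, 175.4 and 176.8 CPM with siAtf3, which lay close together and below the scramble libraries (-0.36 ± 0.05, adjusted p = 1.37e-07). Wipi1 had 55.7, 59.7, 56.8 and 55.7 CPM with siAtf3, against 79.6, 79.2, 88.9 and 83.7 CPM with scramble (-0.54 ± 0.04, adjusted p = 1.07e-12). Ulk1 had 138.7, 143.4, 151.7 and 134.1 CPM with siAtf3, below every scramble library (-0.37 ± 0.09, adjusted p = 0.000537). Nbr1 averaged 250.2 CPM with siAtf3 and 243.6 CPM with scramble, and Tfeb averaged 27.5 CPM with siAtf3 and 25.5 CPM with scramble, neither of which passed the test. Tax1bp1 averaged 262.2 CPM with siAtf3 and 272.2 CPM with scramble, without overlap but also without a call (-0.054, adjusted p = 0.239), and Becn1 averaged 66.4 CPM with siAtf3 and 69.0 CPM with scramble.

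The scaling mattered for this comparison. With library totals all 10 members were called in cholesterol, 4 higher and 6 lower. Nbr1 and Tfeb, at 0.038 and 0.11 without a call under TMM, were then called higher. Tax1bp1 and Becn1 were called higher too, with log2 fold changes of 0.13 each in place of values below 0. The log2 fold changes of the lower members were then -0.32 for Sqstm1, -0.35 for Optn, -0.17 for Map1lc3b, -0.19 for Ulk1 and -0.35 for Wipi1, with the median of all genes at 0.17. Among all calls 71.2% were higher with library totals and 45.6% with TMM. Fibroblast markers moved in this comparison as well, with 5 of 8 lower with siAtf3 and none higher, at a summed 3804 to 4222 CPM with siAtf3 and 6358 to 6967 CPM with scramble. Of the adipocyte markers 6 of 10 were lower and 1 higher, and all 4 siAtf3 libraries were below the scramble libraries on the first axis of the principal component analysis. The part of these markers and of this position in the result was not tested.

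In control treatment, Nbr1 had 224.4, 221.9, 208.1 and 220.4 CPM with siAtf3, against 166.7, 161.4, 172.3 and 171.7 CPM with scramble. The groups were clearly apart (0.38 ± 0.05, adjusted p = 7.02e-08). Wipi1 had 107.1, 104.2, 100.2 and 104.5 CPM with siAtf3, against 142.4 to 145.3 CPM with scramble (-0.47 ± 0.04, adjusted p = 2.6e-11). Tfeb averaged 20.9 CPM with siAtf3 and 17.4 CPM with scramble (0.27 ± 0.07, adjusted p = 0.0024). Map1lc3b averaged 177.4 CPM with siAtf3 and 214.8 CPM with scramble (-0.28 ± 0.05, adjusted p = 2.06e-05). Gabarapl1 averaged 112.9 CPM with siAtf3 and 146.4 CPM with scramble (-0.37 ± 0.12, adjusted p = 0.0177). It was no longer called without library 4 of the scramble controls (-0.33, adjusted p = 0.0529) and with library totals (adjusted p = 0.0784). Sqstm1 averaged 764.6 CPM with siAtf3 and 777.1 CPM with scramble, and Optn 26.5 CPM with siAtf3 and 24.4 CPM with scramble, with overlapping libraries in both genes. Ulk1 had 122.2, 121.2, 122.3 and 120.6 CPM with siAtf3, below every scramble library but not called (-0.18, adjusted p = 0.0976). Tax1bp1 averaged 218.4 CPM with siAtf3 and 213.7 CPM with scramble, and Becn1 65.0 CPM with siAtf3 and 64.1 CPM with scramble, neither of which was called. Of the marker genes, 4 of 8 for fibroblasts were lower and 1 higher, and 4 of 7 for endothelial cells were lower and none higher. For adipocytes 4 of 10 were lower and 1 higher, and for smooth muscle 3 of 6 were lower and none higher. Of those for macrophages 4 of 10 were higher and 1 lower. The part of these markers was not tested. With library totals 5 members were called higher and 2 lower, Map1lc3b and Tfeb had log2 fold changes of -0.14 and 0.41, and 76% of all calls were higher in place of 49.8%.

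The cholesterol response with siAtf3 was compared with that in scramble cells as an interaction. It was smaller for all 4 of the members that passed this test: the receptors Sqstm1, Nbr1 and Optn, and Gabarapl1. By this test 15.3% of all genes were called (6.21% higher and 9.13% lower), and 51.8% of calls were higher with library totals in place of 40.5%. The difference of log2 responses was -0.66 ± 0.12 for Optn (adjusted p = 0.000507) and -0.34 ± 0.07 for Nbr1 (adjusted p = 0.000955). It was -0.49 ± 0.14 for Sqstm1 (95% interval -0.77 to -0.21, adjusted p = 0.0172) and -0.51 ± 0.17 for Gabarapl1 (adjusted p = 0.0477). The other 6 members had differences between -0.19 and -0.072 that were not called. The call of Gabarapl1 was lost in 14 of 16 fits that left out 1 of the libraries compared (adjusted p between 0.0266 and 0.13), with DESeq2 size factors (0.0547) and with no filter on low counts (0.125). Sqstm1 was not called without library 2 of the scramble controls (-0.43, adjusted p = 0.0503), scramble cholesterol library 1 (-0.40, adjusted p = 0.0568) or siAtf3 cholesterol library 2 (-0.43, adjusted p = 0.0518). Without each of these 3 libraries 2 members remained called. Sqstm1 also missed the threshold with no filter on low counts (adjusted p = 0.056) and without scramble cholesterol library 1 and siNfe2l1 control library 4 (0.0639). Of the macrophage markers 4 of 10 and of the fibroblast markers 5 of 8 were also lower in this interaction, and their part was not tested.

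With both siRNAs in cholesterol, the receptors Sqstm1, Optn and Tax1bp1, both ATG8 genes, Ulk1 and Wipi1 were lower than with scramble. Gabarapl1 stood at 0.476 of the scramble level. In all 7 members were lower and none higher, against 44.7% of all genes called (20.8% higher and 23.9% lower), and libraries did not overlap for 8 members, against 37.8% of all genes. Gabarapl1 had 169.2, 137.3, 146.2 and 142.1 CPM with both siRNAs, all below the lowest scramble library at 261.1 CPM (-1.07 ± 0.12, adjusted p = 7.49e-08). Optn had 49.2, 45.5, 46.0 and 47.5 CPM with both siRNAs, against 67.6 to 77.6 CPM with scramble (-0.64 ± 0.08, adjusted p = 1.72e-07). Sqstm1 had 2542, 2302, 2665 and 2571 CPM with both siRNAs, likewise below every scramble library (-0.60 ± 0.10, adjusted p = 1.03e-05). Wipi1 fell by 0.41 ± 0.04 on the log2 scale, Ulk1 by 0.35 ± 0.09, Map1lc3b by 0.29 ± 0.05 and Tax1bp1 by 0.16 ± 0.04 relative to scramble. With library totals 1 member was higher and 6 lower, Tax1bp1 was no longer called (adjusted p = 0.788), and Wipi1, Ulk1 and Map1lc3b had log2 fold changes of -0.26, -0.20 and -0.13. Among all calls 72.5% were then higher, in place of 46.6%. Nbr1 averaged 231.6 CPM with both siRNAs and 243.6 CPM with scramble, Tfeb 27.6 CPM with both siRNAs and 25.5 CPM with scramble, and Becn1 65.2 CPM with both siRNAs and 69.0 CPM with scramble, and none of these was called. Of the markers, 5 of 10 for macrophages were higher and none lower, 5 of 8 for fibroblasts were lower and 1 higher, and 5 of 10 for adipocytes were lower. As with siAtf3, all 4 libraries were below the scramble libraries on the first axis, and neither the markers nor this position was tested for a part in the result.

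In control treatment, both siRNAs gave higher Nbr1 and Tfeb and lower Gabarapl1, Wipi1, Map1lc3b and Tax1bp1 than scramble. These are 2 members higher and 4 lower, against 27.2% of all genes called (12.9% higher and 14.3% lower), and libraries did not overlap for 7 members, against 33.7% of all genes. Gabarapl1 had 101.1, 98.5, 91.9 and 98.8 CPM with both siRNAs, against 132.6 to 160.0 CPM with scramble (-0.59 ± 0.12, adjusted p = 0.000651). Wipi1 had 110.7, 113.8, 110.4 and 103.6 CPM with both siRNAs and was below every scramble library (-0.39 ± 0.04, adjusted p = 3.22e-09). Nbr1 had 193.0, 196.8, 191.0 and 184.4 CPM with both siRNAs and was above every scramble library (0.19 ± 0.05, adjusted p = 0.00333). Tfeb differed by 0.27 ± 0.07 (adjusted p = 0.0028), Map1lc3b by -0.20 ± 0.05 (adjusted p = 0.00184) and Tax1bp1 by -0.11 ± 0.04 (adjusted p = 0.0295). The call of Tax1bp1 was lost without scramble control library 3 or 4 or without library 1, 3 or 4 of both siRNAs (adjusted p between 0.0567 and 0.107). It was also lost with library totals (0.908), with no filter on low counts (0.228) and without the libraries numbered 1 (0.0749). With library totals Map1lc3b was no longer called (0.0781), Nbr1 had 0.29, 3 members were higher and 2 lower, and 74.8% of all calls were higher in place of 47.5%. Sqstm1 had 685.4, 681.0, 655.9 and 666.6 CPM with both siRNAs, below every scramble library but not called (-0.21, adjusted p = 0.117). It was called in the fit on the 2 groups alone (adjusted p = 4.3e-05). Optn averaged 25.3 CPM with both siRNAs and 24.4 CPM with scramble, Ulk1 135.5 CPM with both siRNAs and 138.1 CPM with scramble, and Becn1 66.9 CPM with both siRNAs and 64.1 CPM with scramble, with no call. Macrophage markers were higher in 9 of 10 cases and lower in none, at a summed 498.7 to 541.6 CPM with both siRNAs and 207.5 to 244.4 CPM with scramble, and 3 of 8 fibroblast markers were lower. Their part was not tested.

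The cholesterol response with both siRNAs differed from that in scramble cells for Optn (-0.70 ± 0.12, adjusted p = 0.000461) and Nbr1 (-0.26 ± 0.07, adjusted p = 0.0108). Both responses were smaller. Thus 2 members were lower, against 13.7% of all genes called (6.52% higher and 7.21% lower), and 60% of all calls were higher with library totals in place of 47.5%. Sqstm1 (-0.40 ± 0.14, adjusted p = 0.0543), Gabarapl1 (-0.49 ± 0.17, adjusted p = 0.0608) and Ulk1 (-0.32 ± 0.12, adjusted p = 0.0765) missed the threshold, and the other 5 members had differences between -0.16 and -0.017. Without scramble cholesterol library 4 these 3 passed it (adjusted p = 0.0297, 0.0287 and 0.0474), which made 5 members. Sqstm1 also passed without scramble cholesterol library 2 (-0.42, adjusted p = 0.0425), and Gabarapl1 without cholesterol library 1 of both siRNAs (-0.54, adjusted p = 0.0441). The same 3 genes passed in the fit on the 4 groups compared alone (adjusted p = 0.00864, 0.0117 and 0.0246) and in DESeq2's Wald test (0.0231, 0.0208 and 0.045).

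The comparisons with siNfe2l1 asked how these mRNAs differ in cells given siRNA against Nfe2l1. In cholesterol Atf3 averaged 267.8 CPM with siNfe2l1 (133.7 to 481.2) and 397.8 CPM with scramble (280.8 to 561.2). This difference of Atf3 was not called (-0.57, adjusted p = 0.12 by edgeR), and its part in the results was not tested. In cholesterol 5 members were called lower than with scramble, namely Gabarapl1, Sqstm1, Optn, Nbr1 and Map1lc3b, but the libraries of both groups overlapped in each of the 5, as in the other 5 members. The background was 19.9% of all genes called (11.3% higher and 8.59% lower) and 12.5% without overlap, and 72.5% of calls were higher with library totals in place of 56.9%. Sqstm1 had 3715, 3054, 2559 and 2293 CPM with siNfe2l1 and 4534, 3497, 3915 and 3376 CPM with scramble (-0.40 ± 0.10, adjusted p = 0.00436). Gabarapl1 had 284.1, 210.8, 171.9 and 159.5 CPM with siNfe2l1 and 367.9, 295.1, 326.0 and 261.1 CPM with scramble (-0.60 ± 0.12, adjusted p = 0.00097). Optn had 75.4, 61.8, 50.4 and 46.5 CPM with siNfe2l1 and 77.5, 70.5, 77.6 and 67.6 CPM with scramble (-0.33 ± 0.08, adjusted p = 0.00536). In these 3 genes siNfe2l1 library 1 was within the scramble range, and libraries 2, 3 and 4 were below it. Nbr1 differed by -0.19 ± 0.05 (adjusted p = 0.00479) and Map1lc3b by -0.18 ± 0.05 (adjusted p = 0.00887).

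These 5 calls depended on which libraries entered the fit. Without siNfe2l1 cholesterol libraries 3 and 4 none of the 5 was called, with log2 fold changes of -0.18 for Sqstm1 (adjusted p = 0.24), -0.34 for Gabarapl1 (0.0712), -0.10 for Optn (0.461), -0.11 for Nbr1 (0.256) and -0.14 for Map1lc3b (0.165). In a fit on the 2 groups compared alone none was called either (adjusted p between 0.0842 and 0.158). Map1lc3b was also not called without library 1 of the scramble cholesterol group (-0.12, adjusted p = 0.0703). Tfeb averaged 22.7 CPM with siNfe2l1 and 25.5 CPM with scramble and was called without scramble cholesterol library 3 (-0.22, adjusted p = 0.0283) or 4 (-0.20, adjusted p = 0.0487), or without siNfe2l1 library 3 (-0.21, adjusted p = 0.0495). Ulk1 averaged 167.1 CPM with siNfe2l1 and 184.0 CPM with scramble, Wipi1 80.0 CPM with siNfe2l1 and 82.8 CPM with scramble, Becn1 71.5 CPM with siNfe2l1 and 69.0 CPM with scramble, and Tax1bp1 272.3 CPM with siNfe2l1 and 272.2 CPM with scramble, and none was called. All 10 macrophage markers were higher with siNfe2l1 in cholesterol, at a summed 209.2 to 264.6 CPM with siNfe2l1 and 115.2 to 136.6 CPM with scramble. Of the other markers, 5 of 7 for endothelial cells and 4 of 8 for fibroblasts were higher and none lower. For adipocytes 1 of 10 was higher and 3 were lower. The part of these markers in the results was not tested.

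In control treatment Gabarapl1 was the only member called, with 109.8, 95.4, 105.0 and 102.4 CPM with siNfe2l1 and 140.5, 132.6, 152.5 and 160.0 CPM with scramble. The groups did not overlap (-0.51 ± 0.12, adjusted p = 0.0108), and 5.99% of all genes were called (3.13% higher and 2.87% lower). Sqstm1 had 689.3, 614.6, 695.9 and 690.7 CPM with siNfe2l1, below every scramble library, without passing the test in the fit over all groups (-0.21, adjusted p = 0.249). It passed in the fit on the 2 groups alone (adjusted p = 0.012). These were the 2 members without overlap, against 13.8% of all genes. The other 8 members were not called, at log2 fold changes between -0.062 for Tax1bp1 and 0.12 for Ulk1. Macrophage markers were higher with siNfe2l1 in 9 of 10 cases and lower in none, at a summed 277.9 to 417.6 CPM with siNfe2l1 and 207.5 to 244.4 CPM with scramble, and 3 of 8 fibroblast markers were higher. Their part was not tested. The cholesterol response with siNfe2l1 differed from that in scramble cells for 0 members by edgeR's test, which called 0.247% of all genes (0.206% higher and 0.0412% lower). DESeq2's Wald test called 0 members too, and 3 members had an unadjusted p under 0.05 by edgeR. The difference of log2 responses was -0.19 for Sqstm1 (95% interval -0.47 to 0.09, adjusted p = 0.527) and -0.28 for Optn (adjusted p = 0.27). Without siNfe2l1 cholesterol library 1, 3 members were called, Sqstm1 (-0.35, adjusted p = 0.0463), Nbr1 (-0.22, adjusted p = 0.0421) and Optn (-0.45, adjusted p = 0.00391). Without libraries 3 and 4 of that group the value of Sqstm1 was 0.029.

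**Figure D4:**
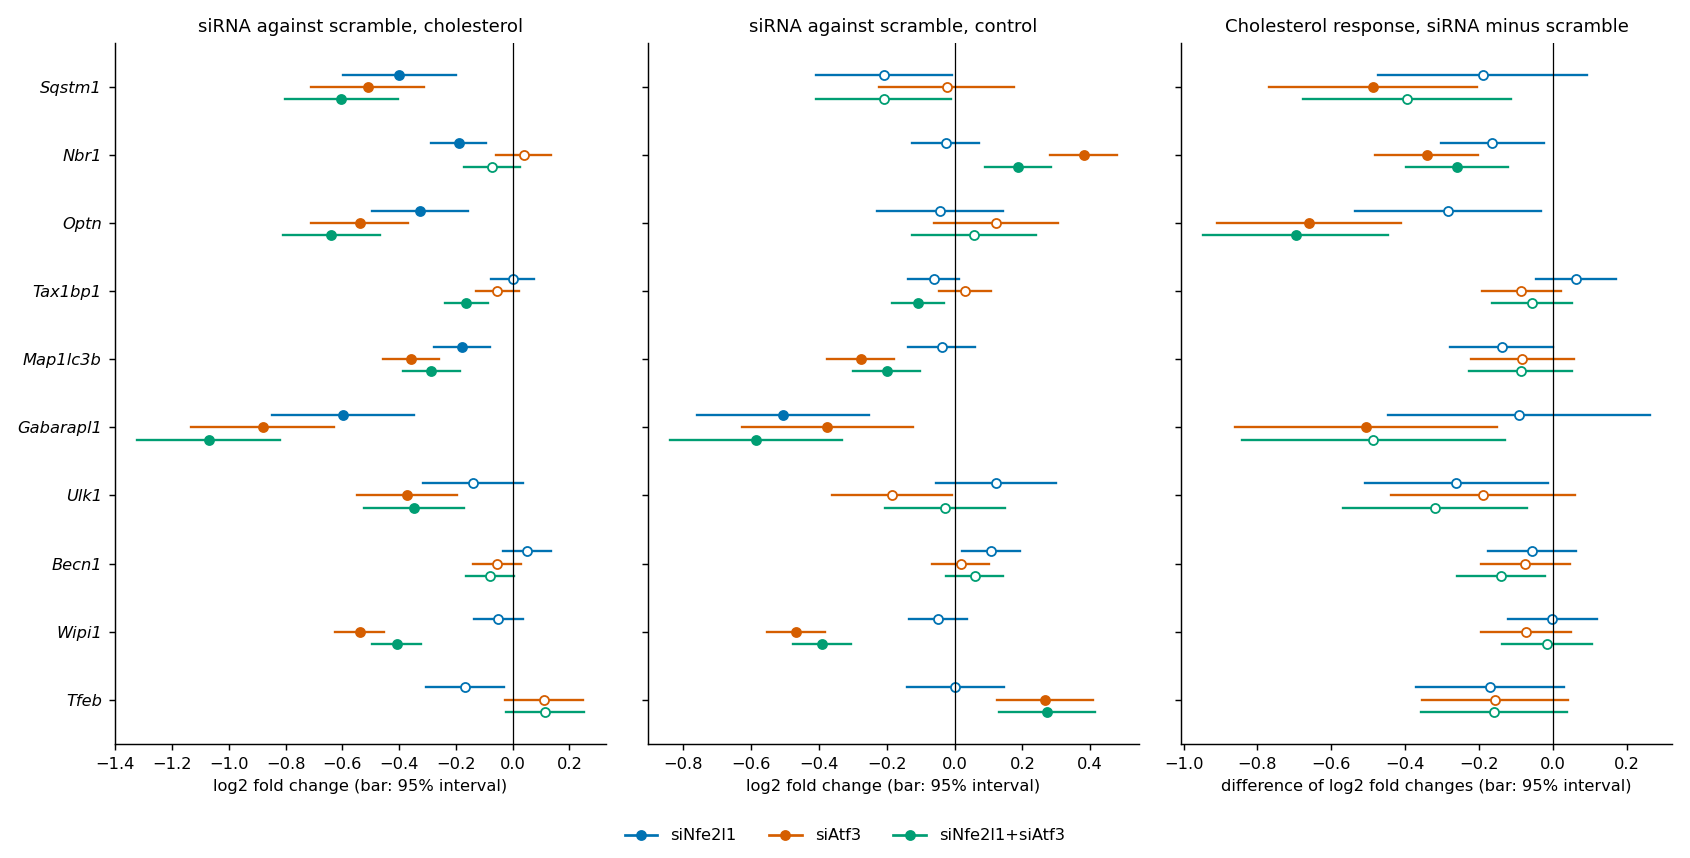
Log2 fold change of each siRNA treatment against scramble in cholesterol (left) and in control treatment (middle), and the difference of log2 cholesterol responses (right), with 95% intervals, where filled points passed the test. Gabarapl1 lies below 0 in all panels, Nbr1 lies above 0 with siAtf3 in control treatment, and no member is filled for siNfe2l1 in the right panel.

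Ordered over the 8 groups, the members fell into patterns that set the 4 large changes apart. Group means spanned 5.70-fold for Sqstm1, 3.20-fold for Gabarapl1, 3.10-fold for Optn and 2.52-fold for Wipi1, and between 1.11-fold and 1.59-fold for the other 6. Sqstm1 was highest with scramble and cholesterol (3830.7 ± 522.9 CPM), followed by siNfe2l1 (2905.1 ± 625.1), siAtf3 (2688.3 ± 189.4) and both siRNAs (2520.0 ± 154.6) in cholesterol, and neighbours in this order overlapped. All 4 control groups lay below them, with 672.2 ± 13.5 CPM for both siRNAs at the low end (SD, n = 4 each). Optn had the same order in cholesterol, with overlap between neighbours, and its 4 control groups overlapped each other in sequence between means of 23.6 and 26.5 CPM. Gabarapl1 with both siRNAs in cholesterol, at 148.7 CPM, overlapped scramble control libraries, at 146.4 CPM. Wipi1 ran the other way, with scramble and siNfe2l1 controls highest at 143.8 and 138.9 CPM and siAtf3 in cholesterol lowest at 57.0 CPM. Becn1 means ran from 64.1 to 71.5 CPM, and all neighbouring groups overlapped.

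The members belong to a wider list of 72 autophagy genes, of which 71 were tested. In scramble cells cholesterol raised 40 of them and lowered 11, with a median log2 fold change of 0.24 against a median of 0.00 for all genes, of which 32.9% were higher and 32.3% lower. Without the members these numbers were 32 and 10 of 61. With library totals 34 were higher and 16 lower. Among the receptors 11 of 16 rose and 2 fell. Stbd1, a glycogen-binding receptor, averaged 27.9 CPM in cholesterol and 7.61 CPM in control treatment (1.87 ± 0.11, adjusted p = 6.66e-17), and Tollip, a ubiquitin-binding receptor, 189.5 and 103.8 CPM (0.87 ± 0.05, adjusted p = 8.83e-17). Bnip3, a receptor on mitochondria, rose by 0.63 ± 0.06. In the ULK1 complex 4 of 5 rose and 1 fell: its subunits Atg13 (0.69 ± 0.05), Atg101 (0.64 ± 0.07) and Rb1cc1 (0.59 ± 0.07) rose, and the kinase gene Ulk2 fell to 59.0 CPM in cholesterol, against 83.8 CPM in control treatment (-0.51 ± 0.06).

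In the lipid kinase complex 6 of 8 rose and 2 fell, with Nrbf2 (0.82 ± 0.08) and Atg14 (0.68 ± 0.07), which are subunits of the complex, among those that rose. Of the conjugation genes, which attach ATG8 proteins to the membrane, 6 of 10 rose and 1 fell, among them Atg7 (0.68 ± 0.05), Atg12 (0.61 ± 0.05) and Atg16l1 (0.52 ± 0.04). Of the genes of membrane growth, Wipi1 among them, 2 of 10 rose and 2 fell, and the WIPI-family gene Wdr45 rose by 0.59 ± 0.06. Of the ATG8 family 2 of 5 rose. The smaller rise was that of Gabarap (0.20 ± 0.07, adjusted p = 0.0118), which was not called without library 1 of the scramble cholesterol group (0.090, adjusted p = 0.175), in the fit on the 2 groups alone (0.0548) and with library totals (0.318). Of the fusion genes 3 of 6 rose and 2 fell. Epg5, a tether between autophagosome and lysosome, rose by 0.80 ± 0.08, and Stx17, the SNARE on the autophagosome, fell by 0.64 ± 0.07. Of the regulators 6 of 11 rose and 1 fell. The transcription factor gene Foxo3 averaged 145.4 CPM in cholesterol and 59.3 CPM in control treatment (1.29 ± 0.14, adjusted p = 3.95e-09), and Sesn2, an inhibitor of the growth kinase mTORC1, rose by 0.98 ± 0.11. With the other siRNAs cholesterol raised 38 and lowered 10 (siNfe2l1), raised 42 and lowered 9 (siAtf3), and raised 38 and lowered 10 of the 71 genes (both siRNAs). Over all genes 31.1% were higher and 29% lower with siNfe2l1, 29.4% and 28.6% with siAtf3, and 29.8% and 28.9% with both. Without siNfe2l1 cholesterol libraries 3 and 4, the siNfe2l1 counts were 39 and 10.

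With siAtf3 the wider list moved in both directions relative to scramble, 21 higher and 26 lower in cholesterol and 23 higher and 16 lower in control treatment, of 71 genes. Over all genes 23% were higher and 27.4% lower in cholesterol, and 18.1% and 18.2% in control treatment. With library totals these were 35 and 17 in cholesterol and 40 and 10 in control treatment. Of 16 receptors 2 were higher and 7 lower with siAtf3 in cholesterol, and of the 5 ATG8 genes 3 were lower. Atg13 had the largest fall with siAtf3 among the list genes, to 53.3 CPM against 123.6 CPM with scramble in cholesterol (-1.21 ± 0.05, adjusted p = 1.29e-21) and to 38.9 CPM against 76.7 CPM in control treatment (-0.98 ± 0.05, adjusted p = 1.22e-18). Other genes that were lower with siAtf3 in cholesterol were the mitochondrial receptor gene Fundc1 (-0.66 ± 0.08), the protease gene Atg4d (-0.66 ± 0.07), Foxo3 (-0.84 ± 0.13), Stbd1 (-0.74 ± 0.10), Gabarap (-0.46 ± 0.07) and Tfe3, a relative of Tfeb (-0.32 ± 0.04). Higher were Ulk2 (0.66 ± 0.06), Bnip3 (0.53 ± 0.06), Stx17 (0.49 ± 0.07), Pik3r4, a subunit of the lipid kinase complex (0.56 ± 0.07), and Atg9a, a membrane protein that supplies lipid (0.50 ± 0.06). As an interaction, the log2 cholesterol response was lower with siAtf3 than with scramble for 13 list genes and higher for 4, against 9.13% lower and 6.21% higher over all genes. Foxo3 (-0.88 ± 0.19, adjusted p = 0.00311) and Sesn2 (-0.70 ± 0.16, adjusted p = 0.00449) had smaller responses, and the response of Ulk2, which was below 0 in scramble cells, was higher with siAtf3 (0.34 ± 0.09, adjusted p = 0.00701).

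With both siRNAs 13 list genes were higher and 28 lower than with scramble in cholesterol, and 17 higher and 18 lower in control treatment. Over all genes 20.8% were higher and 23.9% lower in cholesterol, and 12.9% and 14.3% in control treatment. With library totals these were 28 and 18 in cholesterol and 29 and 12 in control treatment. Atg13 averaged 65.7 CPM with both siRNAs and 123.6 CPM with scramble in cholesterol (-0.91 ± 0.05, adjusted p = 8.31e-18). With siNfe2l1 alone 18 list genes were lower and none higher in cholesterol, against 8.59% lower and 11.3% higher over all genes, which became 2 in the fit on the 2 groups alone, 5 without siNfe2l1 cholesterol libraries 3 and 4, and 5 higher and 25 lower without library 1 of that group. With library totals 7 were higher and 10 lower. All 5 ATG8 genes were among the 18, with Map1lc3a at -0.21 ± 0.07 (adjusted p = 0.0242), Gabarap at -0.19 ± 0.07 (0.0424) and Gabarapl2 at -0.16 ± 0.06 (0.0467), and none of these 3 was called without scramble cholesterol library 1 (adjusted p between 0.229 and 0.366). Atg101 (-0.41 ± 0.07, adjusted p = 4.11e-05) and Wdr45 (-0.33 ± 0.06, adjusted p = 0.000154) stood apart from their scramble libraries, as did Wipi2, Bnip3 and Rtn3. In control treatment 3 of the 71 genes were lower with siNfe2l1, a share near that of all genes (2.87% lower), namely Gabarapl1, Wipi2 (-0.16 ± 0.04, adjusted p = 0.00468) and the reticulum receptor gene Rtn3 (-0.16 ± 0.04, adjusted p = 0.0045), and the calls of Wipi2 and Rtn3 were lost with no filter on low counts (0.115 and 0.0736).

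**Figure D5:**
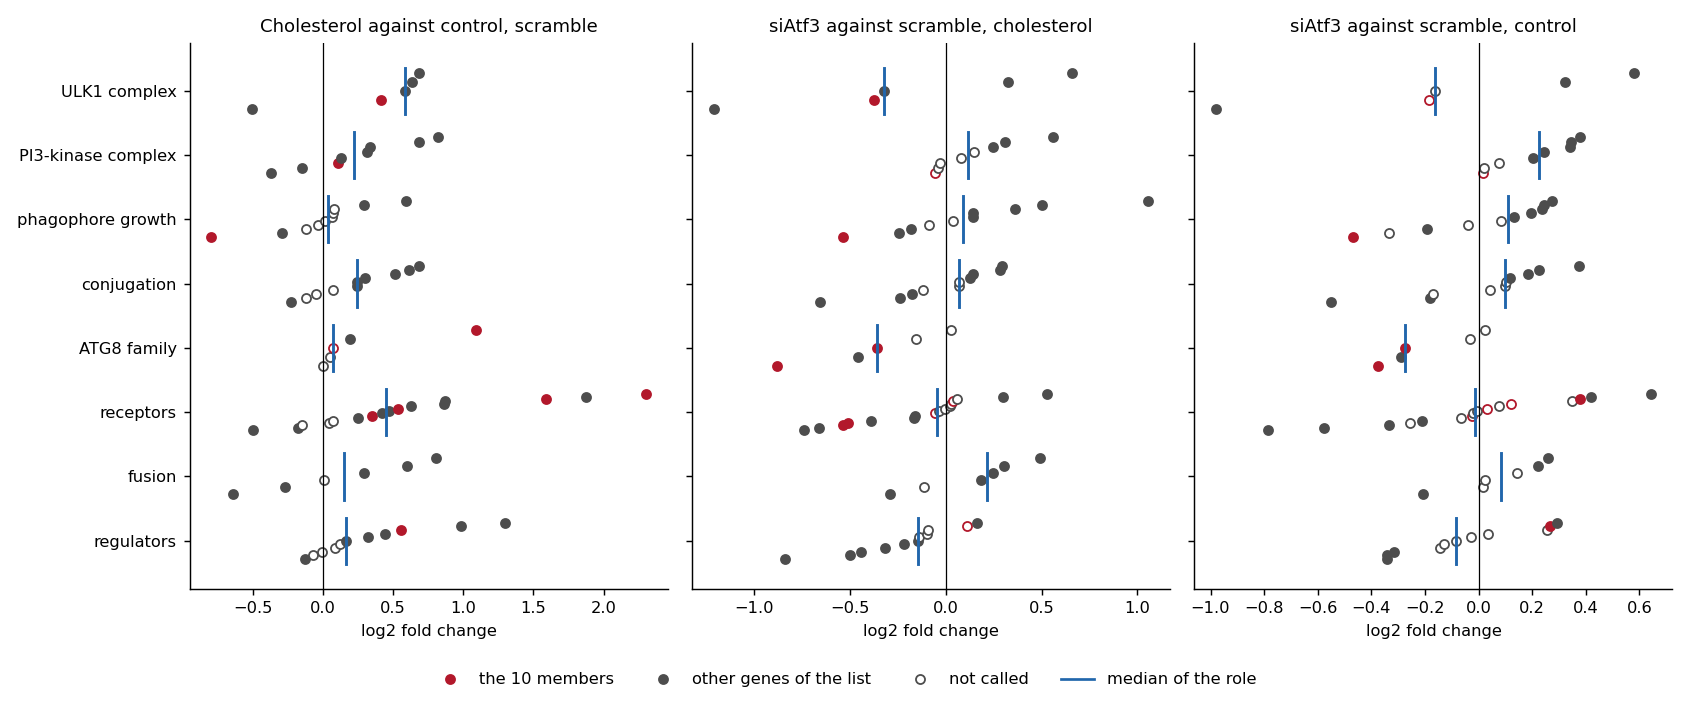
Log2 fold changes of the 71 tested autophagy genes by role, for cholesterol against control treatment in scramble cells and for siAtf3 against scramble in cholesterol and in control treatment. Red points are the 10 members, open points did not pass the test, and a blue line marks the median of each role. Sqstm1 and Stbd1 are the highest points of the first panel.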

How the data were processed

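Per the submitters' processing notes, the tools were fastp, HISAT2 2.0.5 and featureCounts 1.5.0-p3 on GRCm39. Strandedness and the counting of multiply aligned reads are not given in the sources used here. The deposited table holds counts per gene, per the file headers, all of them whole numbers, and no scaling is named. Columns were matched to samples by name, and the added C in the names was read as cholesterol.

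From these counts, edgeR 4.0.16 (R 4.3.3) kept genes with filterByExpr (minimum count 10, minimum total 15). TMM factors lay between 0.886 and 1.1, and CPM values of single genes are on TMM-scaled library sizes. The summed marker levels are on library totals. One robust quasi-likelihood model of 8 group means (24 residual degrees of freedom) was fitted, and p-values were adjusted over 16984 genes by the Benjamini-Hochberg method at a false discovery rate of 0.05. Levels carry the SD over 4 libraries, and log2 fold changes the SE. RPKM values were computed from the counts and the gene lengths of the deposited table. All 48 pairs of libraries within a group exceeded counting error (chi-square over its degrees of freedom from 2.75 to 44.8), and none was treated as a duplicate. P-values measure the spread between these libraries, pooled over all groups. The steps were tested on simulated data.

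The members, the wider list of 72 genes, the motifs and the marker lists were chosen with earlier results of these data known. The rule named all members, Nfe2l1 and Atf3, and up to 4 called genes of the wider list for each comparison and role by smallest adjusted p, of which not all are printed. Genes with a pattern like a member's were the 5 nearest by root mean square difference. Alternatives were library totals, DESeq2 1.42.0 (size factors or Wald test), no filter, a block for the replicate number, only the groups compared, and leaving out libraries. Same-numbered libraries deviated together in part (correlation over 0.1 in 31 of 112 pairs). Their median correlation was 0.02, against -0.0035 for libraries of different numbers in different groups. The first fit did not take the numbers as pairs, and the block above was fitted as an alternative.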

Additional observations from a re-analysis of the deposited data

Results flagged for a closer look

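Over the 80 combinations of a member and a group, 5 held a library that stood apart from the other 3 by the ratio of its gap to the whole range (in parentheses below), and chance gives about 1 in 20. Sqstm1 in siNfe2l1 control library 2 had 614.6 CPM, against 689.3 to 695.9 CPM in the others (0.9185). Nbr1 in siNfe2l1 control library 4 had 151.7 CPM, against 168.3 to 170.6 CPM (0.8782). Map1lc3b in siNfe2l1 cholesterol library 1 had 216.7 CPM, against 193.0 to 195.5 CPM (0.8975). Gabarapl1 in siAtf3 control library 4 had 118.0 CPM, against 110.7 to 111.7 CPM (0.8656). Ulk1 in control library 2 of both siRNAs had 125.1 CPM, against 138.4 to 139.9 CPM (0.8958).

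The cholesterol response differed between siRNA treatments, by a test of the difference itself, for 6 combinations of a member and an siRNA. With siAtf3 minus scramble the differences of log2 responses were -0.49 for Sqstm1, -0.34 for Nbr1, -0.66 for Optn and -0.51 for Gabarapl1. With both siRNAs minus scramble they were -0.26 for Nbr1 and -0.70 for Optn.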

How the results depend on the processing

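The calls of Sqstm1, Optn, Gabarapl1 and Wipi1 for cholesterol held under every alternative tried in all 4 siRNA treatments. Directions turned with library totals for Map1lc3b (-0.051, adjusted p = 0.311) and Becn1 (-0.017, adjusted p = 0.749) with cholesterol in scramble cells, for Tax1bp1 (0.13, adjusted p = 0.00285) and Becn1 (0.13, adjusted p = 0.012) with siAtf3 in cholesterol, and for Nbr1 (0.077, adjusted p = 0.168) and Becn1 (0.070, adjusted p = 0.193) with both siRNAs in cholesterol. Without siNfe2l1 cholesterol libraries 3 and 4, Ulk1 turned with siNfe2l1 in cholesterol (0.021), as did the siNfe2l1 response differences of Sqstm1 (0.029) and Gabarapl1 (0.17). The cause was not tested.

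Counts that moved by over 1.5 times are given with the first value in parentheses. For siNfe2l1 in control treatment, the list genes called (3) were 1 with no filter, 5 with the replicate block, 7 in the fit on the groups compared, 6 with DESeq2's Wald test, 6 without the libraries numbered 1, 8 without scramble cholesterol library 1 and siNfe2l1 control library 4, 7 without siNfe2l1 cholesterol libraries 3 and 4, and 3 to 5 leaving out 1 library, and the members (1) were 2 in the fit on the groups compared. For siNfe2l1 in cholesterol, the members (5), list genes (18) and all genes (3382) were 0, 2 and 645 in the fit on the groups compared and 0, 5 and 1206 without siNfe2l1 cholesterol libraries 3 and 4. Leaving out 1 library gave 12 to 30 list genes and 2153 to 4755 genes. For siAtf3 in cholesterol, the members (6) were 10 with library totals. For the siNfe2l1 response, all genes (42) were 72 with no filter, 143 with the replicate block, 2 in the fit on the groups compared, 310 with DESeq2's Wald test, 670 without the libraries numbered 1, 5 without scramble cholesterol library 1 and siNfe2l1 control library 4, 5 without siNfe2l1 cholesterol libraries 3 and 4, and 2 to 1337 leaving out 1 library. Members (0) and list genes (0) were 1 and 2 without the libraries numbered 1, and 0 to 3 and 0 to 10 leaving out 1 library. For the siAtf3 response, members (4) and list genes (17) were 2 and 11 with no filter. Members were 2 without scramble cholesterol library 1 and siNfe2l1 control library 4, and 2 to 4 leaving out 1 library. For the response with both siRNAs, members (2) were 4 with the replicate block, and members and list genes (13) were 5 and 20 in the fit on the groups compared, 5 and 20 with DESeq2's Wald test, 5 and 21 without siNfe2l1 cholesterol libraries 3 and 4, and 2 to 5 and 11 to 20 leaving out 1 library.

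With the replicate block, Sqstm1 and Gabarapl1 passed in the response with both siRNAs (adjusted p = 0.036 and 0.0287). Over 112 pairs of groups and numbers, the correlation of same-numbered libraries had a median of 0.02 and a range of -0.30 to 0.55, and 12 of 32 libraries correlated best with their own number. All 5 members called with siNfe2l1 against scramble in cholesterol stayed called with the block (adjusted p between 0.000187 and 0.00709). Tfeb, with the fewest reads of the members, had at least 388 counts per library.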

Other observations

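Genes whose 8 group means lay closest to those of a member were sought among 10894 protein-coding genes, for the 4 members whose means spanned at least 1 on the log2 scale. The measure was the root mean square difference in log2 CPM after centring each gene on its own mean, and it is a description of these 8 groups with no test. Closest to Sqstm1 were Zfand2a, which encodes a stress-induced zinc finger protein bound to the proteasome (0.10), Sgms2, a sphingomyelin synthase (0.11), Jade3 (0.11), the kinase gene Pim3 (0.12) and Slc7a1, a transporter of cationic amino acids (0.12). Optn had nearer neighbours, with Kctd6 and Dip2b (0.05 each), Fem1b, a substrate receptor of a ubiquitin ligase, Rpp38, a ribonuclease P subunit, and Irf2bp2 (0.06 each). Gabarapl1 was followed by Dlgap1 (0.10), Uchl1, a deubiquitinase (0.12), Gfod1, the mitochondrial carrier gene Slc25a51 and Frat2 (0.13 each). Wipi1, the member that fell with cholesterol, was followed by Trabd2b, Rbms3, the interleukin receptor gene Il4ra, the ubiquitin-conjugating enzyme gene Ube2c (0.07 each) and Pcdhgb6 (0.07).

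Among list genes with few reads, Atg9b, a relative of the membrane protein ATG9A, had a higher log2 cholesterol response with siAtf3 than with scramble (1.39 ± 0.27, adjusted p = 0.000581 by edgeR). It averaged 3.27 CPM in cholesterol and 1.35 CPM in control treatment with siAtf3. Ccpg1, a receptor of the endoplasmic reticulum, was the only gene of the wider list that was not tested.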
